A study of Homo sapiens with 24 samples.

Results

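The effect of SUZ12 knockdown on mRNA levels was measured in SW-13 cells that had been exposed to IFNγ. These cells come from a human adrenocortical carcinoma and lack BRG1, so every group described here is BRG1-deficient. The comparison set 3 arrays of cells transfected with siSUZ12 and then given IFNγ for 6 hours against 3 arrays of cells transfected with siCtrl, a control siRNA, and given IFNγ for the same time. These arrays were taken by their labels and are 6 of the 24 analysed here. The remaining groups were the same siRNAs without IFNγ and all of these conditions with siBRM, which targets the BRG1-related ATPase BRM, making 8 groups with 3 arrays each. The methods describe the replicates as biological. The siBRM cells received more siRNA in total than the others, so the target of siBRM and the siRNA load cannot be told apart.

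SUZ12 is a core subunit of PRC2, the complex that places methyl groups on lysine 27 of histone H3, a mark found over repressed genes. Its catalytic subunit is EZH2, and PRC2 is known for holding developmental and inducible genes silent or low. IFNγ acts through a cell surface receptor and the kinases bound to it to turn on interferon-stimulated genes (ISGs), among them transcription factors, antigen presentation genes and chemokines. Comparing siSUZ12 with siCtrl cells in the presence of the cytokine asks which mRNAs differ once PRC2 is depleted and the cytokine signal is on.

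An array carries beads with probes, short DNA strands that each capture 1 mRNA species, and the signal of a probe is its brightness. The table analysed here lists 47231 probes by identifier, and 0 of these identifiers were found in the gene tables used here. The results are therefore given per probe. The SUZ12 knockdown, the markers of the cell type and lists of ISGs were not analysed here, and no probe is assigned to a gene. Several probes can belong to 1 gene, so a count of probes is not a count of genes. RNA came from whole cultures, in which a change in every cell and a larger change in part of the cells cannot be told apart.

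The 6 arrays had mean signals from 531.8 to 604.9, and each was brought to their common mean over the 24 arrays by a factor between 0.958 and 1.09. A probe was read as detected on an array when its detection p-value was below 0.01, which held for 15291 to 16467 probes per array. Log2 signals correlated at 0.994 to 0.995 between replicate arrays and at 0.984 to 0.985 between a siSUZ12 and a siCtrl array. For each of the 24 arrays, the highest correlation was with another array of its group. The median residual SD of a probe was 0.11 on the log2 scale. With 3 arrays per group, an exact permutation test of a single probe cannot give a two-sided p-value below 0.1, so the tests rest on limma, which shares the spread over all arrays and probes.

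With IFNγ present, siSUZ12 cells had 227 probes raised ≥ 2-fold over siCtrl cells and 95 lowered ≥ 2-fold (limma, Benjamini-Hochberg adjusted p under 0.05). These were 0.481% and 0.201% of the 47231 probes, or 0.682% together. Smaller differences were far more common and nearly balanced, since at the adjusted p-value alone 3440 probes (7.28%) were raised and 3281 (6.95%) were lowered. The excess of raised over lowered probes was thus found among the larger differences. No background correction was made here, so probes near background had little room to fall 2-fold. Among the 14445 probes detected by all 3 siCtrl arrays, 130 were raised and 95 lowered ≥ 2-fold. Raised probes had a median log2 difference of 1.38 and reached 4.74, with the middle of the distribution, from the lower to the upper quartile, between 1.11 and 1.79. Lowered probes had a median of -1.25, with quartiles of -1.43 and -1.11, and reached -2.90. A difference of ≥ 4-fold was seen at 36 raised and 2 lowered probes, and one of ≥ 8-fold at 7 raised and 0 lowered probes. The median over all probes was -0.02.

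The called probes were chosen on these 6 arrays, so the separation of their arrays follows in large part from the choice and is given as a description. All 227 raised and all 95 lowered probes had no overlap between the 3 siSUZ12 and the 3 siCtrl arrays, whereas 12.4% of all probes had every siSUZ12 array above every siCtrl array and 14.1% had every one below. At 158 of the raised probes the dimmest siSUZ12 array was still ≥ 2-fold above the brightest siCtrl array, and at 67 of the lowered probes the brightest siSUZ12 array was ≥ 2-fold below the dimmest siCtrl array. Any 1 siSUZ12 array could also be set against any 1 siCtrl array, in 9 pairs. Over these pairs, 213 to 254 probes were ≥ 2-fold higher and 97 to 124 were ≥ 2-fold lower. The median log2 difference of the 227 raised probes ranged from 1.36 to 1.43, and that of the 95 lowered probes from -1.29 to -1.23.

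**Figure D1:**
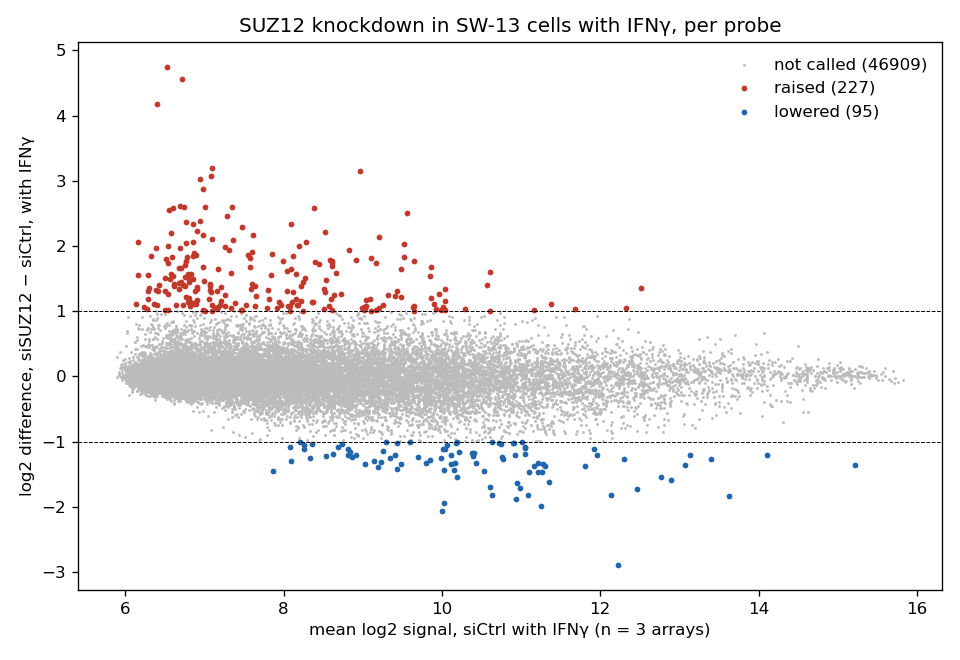
Log2 difference between siSUZ12 and siCtrl cells, both with IFNγ, for each of the 47231 probes (y axis), against the mean log2 signal of the 3 siCtrl arrays with IFNγ (x axis). Dashed lines mark a 2-fold difference. The 227 raised probes (red) have a median siCtrl signal of 167.4 before log2 and reach 4.74. The 95 lowered probes (blue) lie at higher signals, with a median of 1193, and reach -2.90.

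The largest rise was at probe ILMN_3239965. Its normalized signal was 90.4, 92.5 and 94.1 on the siCtrl arrays with IFNγ, none of which detected it, and 2439, 2382 and 2592 on the siSUZ12 arrays with IFNγ, all of which did. It went from the background of the array to a clear signal, with no overlap between the groups. The log2 difference was 4.74 (standard error 0.09, adjusted p = 5.54e-29, limma with Benjamini-Hochberg adjustment). As the siCtrl signal was at background, the size of this difference depends on how background is treated, and with background correction by neqc it was 6.46.

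The second largest rise was at probe ILMN_1764690. Its signal was 103.0, 98.7 and 113.6 on the siCtrl arrays, again detected by none, and 2339, 2611 and 2472 on the siSUZ12 arrays. The log2 difference was 4.56 (standard error 0.08, adjusted p = 7.67e-30, limma with Benjamini-Hochberg adjustment), and with neqc it was 6.18, so its size is uncertain in the same way. The largest rises are ordered by differences without background correction.

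Steep rises from background continued down the order. The probe with the third largest rise had signals of 92.2, 78.2 and 84.5 on the siCtrl arrays and of 1545, 1492 and 1580 on the siSUZ12 arrays, a log2 difference of 4.18. The fourth went from 135.4, 148.0 and 128.0, where 1 siCtrl array detected it, to 1255, 1232 and 1291, a log2 difference of 3.20. The fifth was already expressed in siCtrl cells, with signals of 487.4, 502.1 and 506.6 on arrays that all detected it, and it rose to 4592, 4416 and 4233, a log2 difference of 3.15. In each of these probes the groups were separated by several times the spread of the replicates.

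Falls were smaller and began from probes that were well expressed. The largest was at probe ILMN_1797813, with signals of 4738, 4961 and 4643 on the siCtrl arrays and of 623.5, 652.1 and 650.5 on the siSUZ12 arrays. The mRNA was still detected by all 3 siSUZ12 arrays. Its log2 difference was -2.90 (standard error 0.07, adjusted p = 3.25e-25, limma with Benjamini-Hochberg adjustment), a 7.44-fold fall. Probe ILMN_3251383 had the second largest fall, from 1014, 1085 and 978.9 to 224.5, 256.8 and 254.3. Its log2 difference was -2.07 (standard error 0.08, adjusted p = 6.79e-20, limma with Benjamini-Hochberg adjustment), or 4.19-fold lower, and it was the last of the falls to pass 4-fold.

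**Figure D2:**
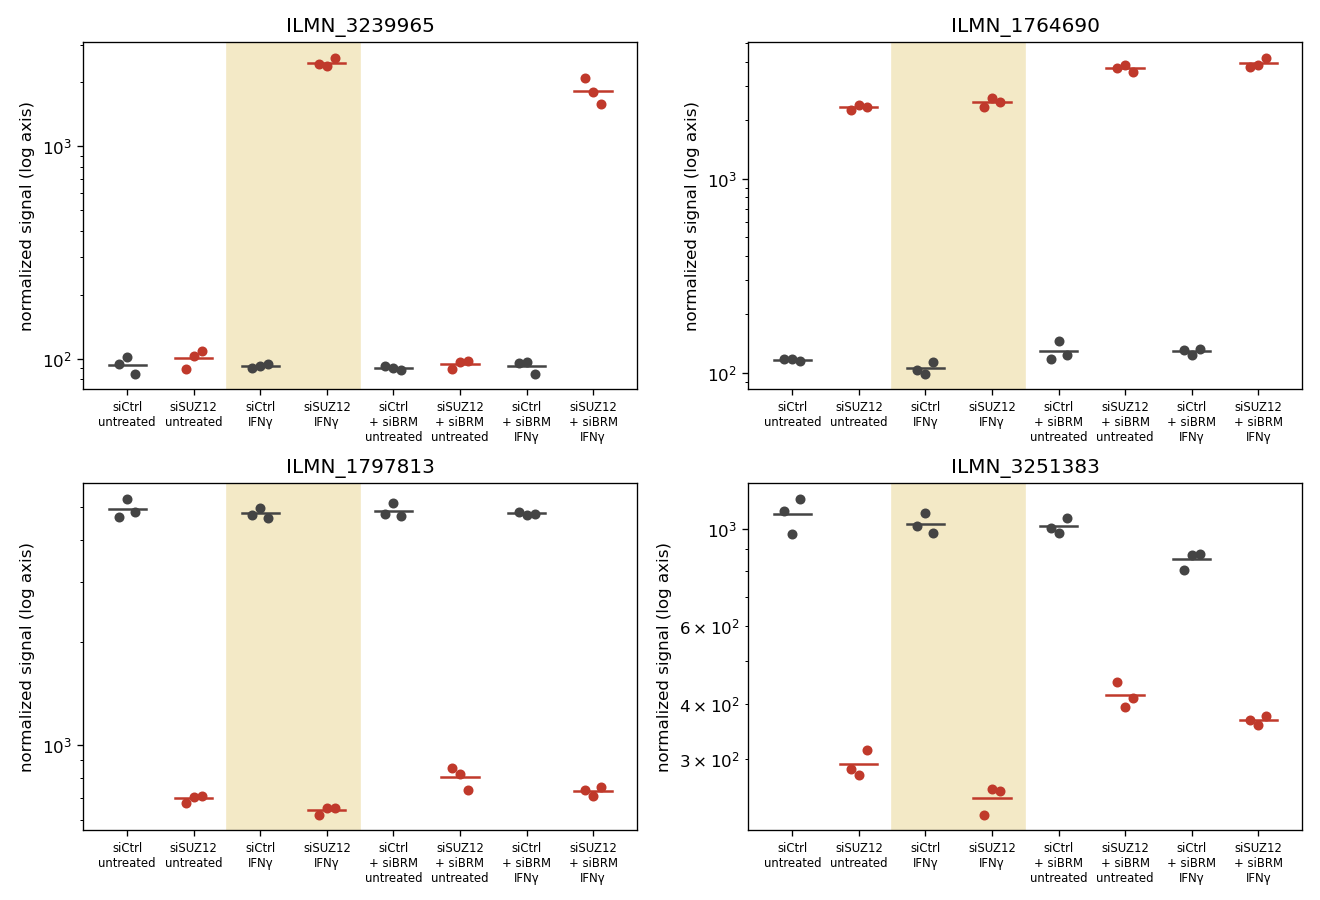
Normalized signal (log axis) of the probes with the largest rises (ILMN_3239965, ILMN_1764690) and falls (ILMN_1797813, ILMN_3251383), in each of the 8 groups. Dots are the 3 arrays of a group, lines their mean, red marks siSUZ12 cells, and the shaded band holds the compared groups. ILMN_3239965 is at 2471 in siSUZ12 cells with IFNγ and at 100.4 in those without, whereas ILMN_1764690 is at 2474 and 2339.

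Probes that were silent in siCtrl cells could be told from those that were already on. Of the 227 raised probes, 82 (36.1%) were detected by no siCtrl array with IFNγ, and every one of these was detected by all 3 siSUZ12 arrays. Their call required a ≥ 2-fold rise, which favours detection in siSUZ12 cells, so their detection there is a description. Their median signal was 103.9 in siCtrl and 304.9 in siSUZ12 cells, and their median log2 difference was 1.54. Another 130 (57.3%) were detected by all 3 siCtrl arrays and went from a median signal of 342.6 to 963.4, a median log2 difference of 1.27. The last 15 were detected by 1 or 2 siCtrl arrays. Read against the array, 0.27% of the 30330 probes detected by no siCtrl array were raised, and 0.9% of the 14445 probes detected by all 3.

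All 95 lowered probes were detected by all 3 siCtrl arrays. Without background correction, probes near background had little room to fall 2-fold, and the part of that limit in this count was not tested. The median signal of the 95 was 1193 in siCtrl and 532.2 in siSUZ12 cells, and 2 of them were detected by no siSUZ12 array. Loss of detection was therefore rare among them. Without the 2-fold threshold, 405 probes were detected by all 3 siSUZ12 arrays and none of the siCtrl arrays, of which 325 were raised at an adjusted p under 0.05. In the opposite direction, 87 probes were detected by all 3 siCtrl arrays and by no siSUZ12 array, of which 70 were lowered.

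Among the 14445 probes detected by all 3 siCtrl arrays with IFNγ, raised and lowered probes came from different ranges of signal. The probes were put in 4 classes of equal size by their siCtrl signal. In the dimmest class, with siCtrl signals from 135.6 to 220.4, 31 of 3612 probes were raised (0.858%) and 0 were lowered. In the next class, up to 428.8, 50 were raised (1.38%) and 12 lowered (0.332%), and in the one after, up to 1114, 40 were raised (1.11%) and 30 lowered (0.831%). In the brightest class, 9 were raised (0.249%) and 53 were lowered (1.47%). At the adjusted p-value alone, the dimmest class held 368 lowered probes, so falls there were found but were small. No background correction was made here, and the part of background in this pattern was not tested.

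The same siRNAs in untreated cells made a comparison on arrays that the comparison with IFNγ did not use. There, 0.451% of all probes were raised ≥ 2-fold and 0.199% were lowered, and at the adjusted p-value alone 8.16% and 5.83%. Of the 227 probes raised with IFNγ, 210 (92.5%) were raised in untreated cells at an adjusted p under 0.05 and none was lowered. The ≥ 2-fold lists shared 166 probes, which were 73.1% of those raised with IFNγ and 77.9% of the 213 raised without it. For the 227 probes, the median log2 difference was 1.38 with IFNγ and 1.26 without it. Most of the probes raised by SUZ12 knockdown with the cytokine were thus raised by it without the cytokine as well.

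Of the 95 probes lowered with IFNγ, all were lowered in untreated cells at an adjusted p under 0.05, and 77 of them ≥ 2-fold, which was 81.1% of those lowered with IFNγ and 81.9% of those lowered without. Their median log2 difference was -1.25 with IFNγ and -1.19 without it. ILMN_1797813 is an example, with signals of 623.5, 652.1 and 650.5 in siSUZ12 cells with IFNγ and of 673.8, 704.7 and 709.8 in those without. At ILMN_3251383 the log2 difference was -1.88 in untreated cells. The 82 raised probes that were silent in siCtrl cells with IFNγ were largely silent in untreated siCtrl cells too, since no untreated siCtrl array detected 79 of them, and all 3 untreated siSUZ12 arrays detected 66.

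The raised probes fell into 3 groups by what SUZ12 knockdown did without IFNγ. The 166 probes raised ≥ 2-fold in both states had median log2 differences of 1.42 with and 1.44 without IFNγ. A further 44 were raised in untreated cells at an adjusted p under 0.05 but by less than 2-fold, with medians of 1.09 with and 0.82 without IFNγ. The remaining 17 were not called in untreated cells, where their median log2 difference was 0.04 and the highest was 0.22. With IFNγ the median of these 17 was 1.56. Their median signals were 93.3 in siCtrl and 100.1 in siSUZ12 untreated cells, 111.9 in siCtrl cells with IFNγ and 570.5 in siSUZ12 cells with IFNγ. These 17 probes were chosen on both pairs of groups, so the contrast between the states is a description of them.

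A test of the difference itself, the interaction term of limma over all 47231 probes, found 86 probes (0.182%) at which the effect of siSUZ12 was higher with than without IFNγ and 8 (0.0169%) at which it was lower, at an adjusted p under 0.05. Of the 86, 38 were among the 227 raised ≥ 2-fold with IFNγ, and 78 were raised with IFNγ at the adjusted p-value alone. The interaction term includes the comparison with IFNγ, so these counts and the signals of the 86 follow in part from the choice. In untreated cells, 23 of the 86 were raised and 15 were lowered by siSUZ12. Their median signal was 125.6 in siCtrl and 157.1 in siSUZ12 untreated cells, 188.0 in siCtrl cells with IFNγ and 545.5 in siSUZ12 cells with IFNγ. The count fell with fewer arrays, since leaving out replicate 1, 2 or 3 of every group left 46, 40 or 44 probes with a higher effect. At an unadjusted p-value below 0.05, 715 probes had a higher and 1890 a lower effect, counts that include chance passes over 47231 probes. The median difference between effects over all probes was -0.04, and -0.003 under quantile normalization. Whether the unadjusted excess of lower effects goes with this shift was not tested.

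**Figure D3:**
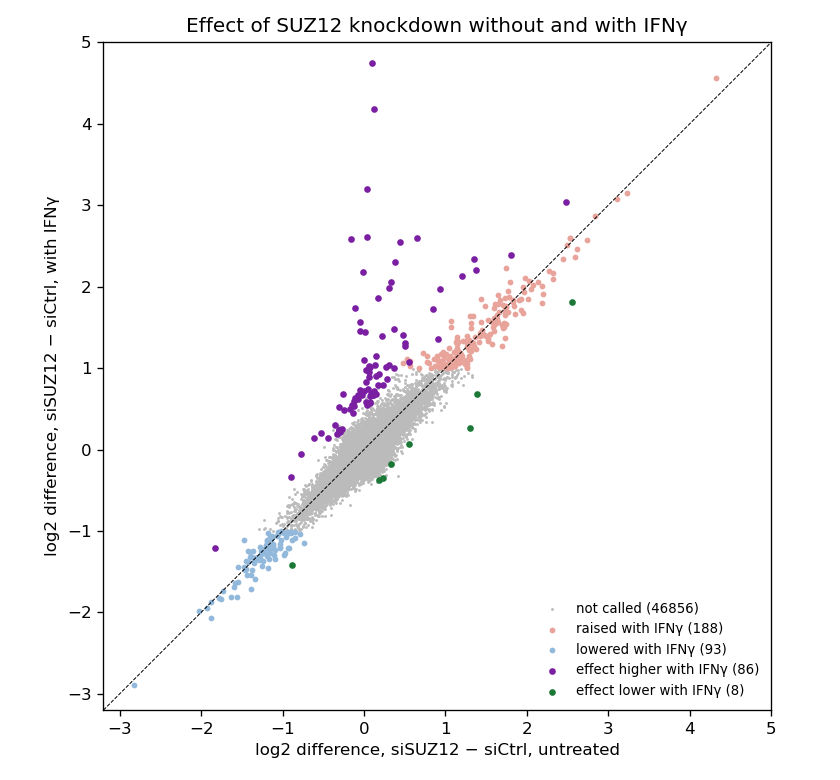
Log2 difference between siSUZ12 and siCtrl cells without IFNγ (x axis) and with IFNγ (y axis) for each probe, with the line of equal effects dashed. Purple marks the 86 probes with a higher and green the 8 with a lower effect with IFNγ, and red and blue mark the other raised and lowered probes. Most called probes lie along the line, and a column of purple probes near 0 on the x axis reaches 4.74.

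At 20 of the 86 probes (0.0423% of all probes) the effect was ≥ 2-fold higher with IFNγ, and all 20 were among the 227 raised. They were chosen on the same arrays, so the overlap, signals and detection given here describe them. No untreated siCtrl array detected 19 of them, no siCtrl array with IFNγ detected 14, and all 3 siSUZ12 arrays with IFNγ detected every one. ILMN_3239965 led them. Its mean signal in untreated cells was 93.5 ± 8.38 (SD, n = 3) with siCtrl and 100.4 ± 9.90 (SD, n = 3) with siSUZ12, a log2 difference of 0.10 (adjusted p = 0.639, limma), and the effect of siSUZ12 was higher with IFNγ by 4.64 (standard error 0.13, adjusted p = 1.8e-23, limma), or by 6.36 with neqc. The probes with the third and the fourth largest rises had the same form, with log2 differences of 0.12 and 0.04 in untreated cells and effects that were higher with IFNγ by 4.06 and 3.16.

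By contrast, ILMN_1764690 had a log2 difference of 4.33 in untreated cells, and the effects with and without IFNγ differed by 0.23 (standard error 0.11, adjusted p = 0.907, limma). The fifth largest rise also had like values in both states, 3.15 with IFNγ and 3.23 without it. The seventh lay between these forms, with 3.03 with IFNγ, 2.48 without it and a difference of 0.55 (adjusted p = 0.0112, limma). The largest rises thus held probes that SUZ12 knockdown raised with or without the cytokine and probes whose rise was seen on the arrays with the cytokine.

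A single probe (0.00212% of all) had an effect that was ≥ 2-fold lower with IFNγ. In untreated cells its signals were 337.2, 382.0 and 361.9 with siCtrl and 899.5, 915.0 and 852.9 with siSUZ12, a log2 difference of 1.30. With IFNγ they were 2122, 2042 and 1885 with siCtrl and 2471, 2395 and 2387 with siSUZ12, a log2 difference of 0.26. The effects differed by -1.04 (adjusted p = 6.53e-08, limma). Both groups were high with IFNγ and a smaller gap was left between them. In siBRM cells the effects differed by -1.16 (adjusted p = 5.92e-09, limma).

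**Figure D4:**
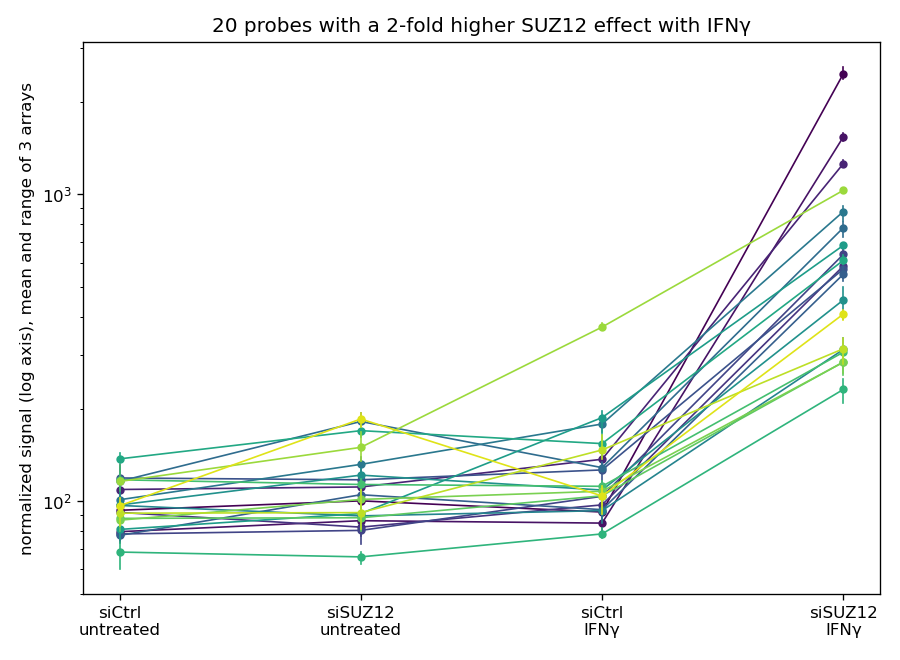
Normalized signal (log axis) of the 20 probes whose siSUZ12 effect was ≥ 2-fold higher with IFNγ, in the 4 groups without siBRM. Each line is 1 probe, with the mean (dot) and the range (bar) of 3 arrays. Median signals are 95.0, 103.2 and 108.3 in the first 3 groups and 577.2 in siSUZ12 cells with IFNγ. The probes were chosen on these 4 groups, so the pattern describes them.

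The siBRM arrays repeated this interaction without sharing an array. There, 0.0974% of all probes had an effect of siSUZ12 that was higher with IFNγ. Of the 86 probes found without siBRM, 85 also had a higher effect with than without IFNγ in siBRM cells. The median difference between effects of the 86 was 0.50 with siBRM and 0.74 without it. The 86 were chosen on the arrays without siBRM, which favours a larger value there. Of the 86, 37 (43%) passed the adjusted p-value in siBRM cells, and these 37 were 80.4% of the 46 that passed there. Without replicate 1, 2 or 3 the 37 became 21, 18 or 21. Among the 20 probes with a ≥ 2-fold difference, all had a higher value in siBRM cells. ILMN_3239965 had signals of 95.6, 96.7 and 85.1 in siCtrl + siBRM cells with IFNγ and of 2099, 1792 and 1585 in siSUZ12 + siBRM cells with IFNγ, so it stood at background in one group and far above it in the other there too. Of the 8 probes with a lower effect, 1 passed in siBRM cells, against 0.0191% of all probes.

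Probes that respond to IFNγ without SUZ12 knockdown were taken from arrays outside the comparison. For these, siCtrl + siBRM cells with IFNγ were set against the same cells without it. The cells received siBRM, so probes that respond to IFNγ only in the absence of siBRM are not in this list. IFNγ raised 466 probes there (0.987%) and lowered 149 (0.315%) by limma at the adjusted p-value alone. With IFNγ, siSUZ12 cells had 216 of these 466 IFNγ-raised probes (46.4%) above siCtrl cells and 82 (17.6%) below, at the adjusted p-value alone. Of the 75 that IFNγ raised ≥ 2-fold (0.159% of all probes), 63 were above and 3 below, with 11 ≥ 2-fold above and 1 ≥ 2-fold below. In untreated cells siSUZ12 raised 103 (22.1%) and lowered 109 (23.4%) of the 466, and raised 33 (44%) and lowered 11 (14.7%) of the 75.

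Most IFNγ-raised probes were well detected, and detected probes pass the test more often. Among the 14445 probes detected by all 3 siCtrl arrays with IFNγ, siSUZ12 raised 17.9% and lowered 20.6% with IFNγ, and raised 19.1% and lowered 18.3% in untreated cells. Of the 424 IFNγ-raised probes in this class, it raised 193 (45.5%) and lowered 82 (19.3%) with IFNγ, and raised 100 (23.6%) and lowered 109 (25.7%) in untreated cells. The lowered share with IFNγ was thus near that of all detected probes, and the raised share was above it.

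Seen from the other side, 28 of the 227 probes raised ≥ 2-fold by SUZ12 knockdown with IFNγ were IFNγ-raised in siCtrl + siBRM cells, which was 12.3% of the 227 and 6.01% of the 466. For the lowered probes this was 11 of 95, or 11.6% of the 95 and 2.36% of the 466. All lowered probes were well detected, and of the 14445 probes detected by all 3 siCtrl arrays with IFNγ, 2.94% were IFNγ-raised. Among the 130 raised probes of that detected class it was 19 (14.6%), and 6 (4.62%) were IFNγ-lowered, against 0.921% of the class. Among the 82 raised probes that were silent in siCtrl cells it was 6 (7.32%), against 29 of all 30330 probes detected by no siCtrl array with IFNγ. Most probes raised by SUZ12 knockdown did not pass as IFNγ-responsive in siCtrl + siBRM cells.

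The groups of raised probes had unlike shares. Over all probes, 0.987% were IFNγ-raised and 0.315% IFNγ-lowered in siCtrl + siBRM cells. Over those detected by all 3 siCtrl arrays with IFNγ, it was 2.94% and 0.921%. Of the 166 probes raised ≥ 2-fold with and without IFNγ, 4 (2.41%) were IFNγ-raised in siCtrl + siBRM cells and 6 (3.61%) were IFNγ-lowered. Of the 44 that were raised by less than 2-fold in untreated cells, 13 (29.5%) were IFNγ-raised. Of the 17 not called in untreated cells, 11 (64.7%) were. Among the 86 probes with a higher effect with IFNγ, 59 (68.6%) were IFNγ-raised and none was IFNγ-lowered, with a median log2 response of 0.64. Without replicate 1, 2 or 3 these became 26 of 46, 22 of 40 and 24 of 44. ILMN_3239965 was not one of them, as IFNγ moved it by 0.03 in siCtrl + siBRM cells (adjusted p = 0.972, limma).

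SUZ12 knockdown with IFNγ was also measured in siBRM cells, on arrays of their own. In those cells 0.292% of all probes were raised ≥ 2-fold and 0.0169% were lowered, and 4.72% and 3.35% at the adjusted p-value alone. All 227 probes raised without siBRM were higher in siSUZ12 + siBRM than in siCtrl + siBRM cells, 225 of them (99.1%) at an adjusted p under 0.05, with a median log2 difference of 1.07. The ≥ 2-fold lists shared 124 probes, which were 54.6% of the 227 and 89.9% of the 138 raised in siBRM cells. The rises were therefore found again in direction, at a smaller median size. The 227 were chosen on the arrays without siBRM, which favours a larger size there.

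For the 95 lowered probes, 94 were lower in siBRM cells too and 89 (93.7%) passed the adjusted p-value, but 7 reached 2-fold, which was 7.37% of the 95 and 87.5% of the 8 lowered there. Their median log2 difference was -0.57 with siBRM and -1.25 without it. ILMN_1797813 had nearly the same fall in siBRM cells, -2.71, and the effects with and without siBRM differed by -0.19 (adjusted p = 0.604, limma). ILMN_3251383 fell from 850.9 ± 40.1 to 368.1 ± 8.79 (SD, n = 3) in siBRM cells, a log2 difference of -1.21, and here the effects differed by -0.86 (adjusted p = 2.19e-05, limma). The probe with the third largest fall had signals of 2354, 2418 and 2568 with siCtrl and of 682.1, 558.2 and 615.0 with siSUZ12, a log2 difference of -1.99, whereas in siBRM cells its log2 difference was -0.19 (adjusted p = 0.225, limma).

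The difference between the effects without and with siBRM was tested over all probes. With IFNγ, the effect of siSUZ12 was higher without siBRM at 283 probes (0.599%) and lower at 329 (0.697%). Among the 227 raised probes it was higher without siBRM at 79, and among the 95 lowered probes it was lower without siBRM at 75. The called probes were chosen for large differences without siBRM, which favours these directions, so the counts describe them. At the 2 largest rises the effects did not pass this test. The log2 difference of ILMN_3239965 was 4.30 in siBRM cells (adjusted p for the difference between the effects = 0.0862, limma) and that of ILMN_1764690 was 4.93 (adjusted p for the difference between the effects = 0.123, limma).

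**Figure D5:**
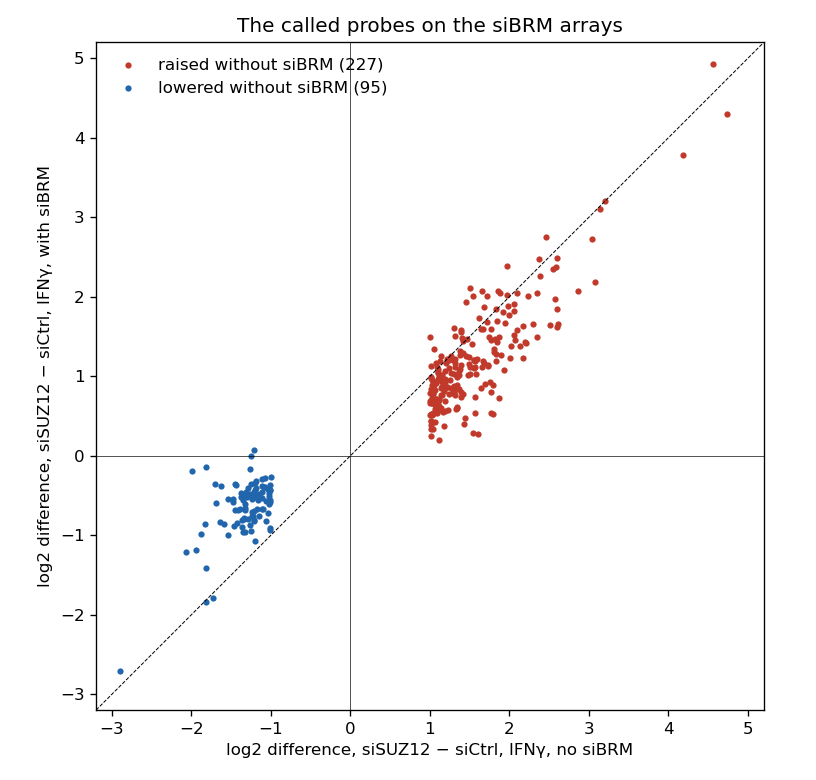
Log2 difference between siSUZ12 and siCtrl cells with IFNγ, without siBRM (x axis) and with siBRM (y axis), for the 227 raised (red) and 95 lowered (blue) probes. The dashed line marks equal effects. All 227 raised probes lie above 0 on the y axis, and the lowered probes lie nearer to 0 there, with a median of -0.57 against -1.25.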

How the data were processed

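Total RNA of SW-13 cells was labelled as cRNA and hybridized by the authors to Illumina Human-HT-12 BeadChips. The authors deposited, for each of 24 arrays, the signal intensity of 47231 probes without normalization, and a detection p-value for each intensity. The submitters' processing notes name BeadStudio, and whether background was subtracted is not given in the sources used here. Samples were grouped and numbered by their titles.

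Arrays were multiplied to share the mean of their 24 mean signals, values under a floor of 16 (0 values) were set to it, and signals were put on the log2 scale. A model with 1 mean for each group was fitted to the 24 arrays together in limma 3.58.1 (R 4.3.3), leaving 16 residual degrees of freedom. Contrasts gave log2 differences and Benjamini-Hochberg adjusted p-values over the 47231 probes. A probe was called at a 2-fold difference and an adjusted p-value below 0.05, and a difference between effects at the adjusted p-value alone. Detection was read at a detection p-value below 0.01. Arrays give no counts, and their number limits the precision.

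Simulated data were made from the real means and spread, with 200 of the 47231 probes changed. Recovery was counted at the adjusted p-value alone, without the 2-fold threshold used for calls. The comparison of siSUZ12 with siCtrl cells with IFNγ recovered 99.5% at a log2 change of 1.2 and 95.5% at 0.6, each with 8 false calls. The difference between effects recovered 99% and 60.5%, with 10 and 6 false calls. Recovery at the 2-fold threshold was not tested. In the real comparison with IFNγ, 3440 probes were raised and 3281 lowered at the adjusted p-value alone, far more than were changed in the simulation.

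The rule for naming was the 12 largest called differences in each direction without overlap between arrays and the largest differences between effects. As probe identifiers were not paired with genes in the tables used here, identifiers are printed for 2 probes that rose and 2 that fell, others are given by rank, and gene lists, values per gene and probe sequences were not analysed. The comparisons and lists were chosen with earlier results of these data known. Alternatives were neqc (background estimated from detection p-values, offset of 16), quantile normalization, a floor of 64, detected probes only, a fit of the compared groups only, a replicate block, the trend and robust options of eBayes, thresholds of 1.5-fold or the adjusted p-value alone, a 2-fold difference between effects, and leaving out each replicate number or array. Plots were made in Python 3.11.15 (matplotlib 3.10.9).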

Additional observations from a re-analysis of the deposited data

Results flagged for a closer look

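The effect of SUZ12 knockdown differed between cells with and without IFNγ by the interaction term of limma (Benjamini-Hochberg adjusted p-value below 0.05), with a higher effect at 86 probes and a lower effect at 8. The largest difference was at ILMN_3239965, where the log2 effect was higher with IFNγ by 4.64.

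With IFNγ, the effect of SUZ12 knockdown also differed between cells without and with siBRM by the same kind of test, with a higher effect without siBRM at 283 probes and a lower one at 329. At ILMN_3251383 the log2 effect without siBRM differed from that with siBRM by -0.86, its fall being the larger one without siBRM. Groups of 3 arrays are too small for a check of single outlying arrays.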

How the results depend on the processing

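The direction was kept at all 227 raised and all 95 lowered probes under quantile normalization and neqc. Leaving out a replicate number could not turn it, since every pair of a siSUZ12 and a siCtrl array had it, and the replicate block kept it too. Quantile normalization still called 219 of the 227 and 88 of the 95. Without replicate 1, 2 or 3, calls were kept at 214, 216 or 214 raised and 88, 90 or 93 lowered probes. neqc, which subtracts background, widened folds, with 566 raised and 266 lowered probes with IFNγ, 805 changed in untreated cells and 316 in siBRM cells, and the 227 and 95 probes were among those it called. A 1.5-fold threshold gave 844, 588, 1389 and 563, and the adjusted p-value alone 3440, 3281, 6605 and 3808. Probes with an effect that differed with IFNγ numbered 94, and 21 with a 2-fold difference between effects. Without a replicate number these were 41 to 50, and without 1 array 73 to 86. The same settings gave 224 to 228 and 223 to 232 raised, and 97 to 103 and 96 to 102 lowered probes with IFNγ, 309 to 314 and 302 to 314 changed in untreated cells, and 137 to 149 and 139 to 152 in siBRM cells. ILMN_3239965 ranged from 4.71 to 6.46, ILMN_1764690 from 4.47 to 6.18, ILMN_1797813 from -3.01 to -2.84 and ILMN_3251383 from -2.51 to -2.00 (log2), each with a limma adjusted p-value of 1.47e-12 or below.

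Replicate numbers were shared by the groups. Over 18229 of the probes, deviations of siCtrl and siSUZ12 arrays with IFNγ of the same number correlated at 0.311, 0.0763 and 0.0981. The siCtrl arrays 1 and 3 correlated best with the siSUZ12 array of their own number, and siCtrl array 2 with siSUZ12 array 3 (0.144). Whether the numbers pair the arrays is thus not settled, and the main fit did not pair them. A replicate block gave 227 raised and 95 lowered probes with IFNγ, 98 with an effect that differed with IFNγ, 307 changed in untreated cells and 146 in siBRM cells.

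Values per gene, by the most intense probe or the mean of the probes of a gene, and their alternatives were not run, because identifiers were not paired with genes in the tables used here. Leaving out a replicate number also moved, by over 1.5 times, the counts of probes with a higher effect with IFNγ (86, then 40 to 46), of those among them that passed in siBRM cells (37, then 18 to 21) and of those that were IFNγ-raised (59, then 22 to 26). Bead signals near background limit the folds of dim probes.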

Other observations

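Of the 213 probes raised ≥ 2-fold by SUZ12 knockdown in untreated cells, 47 did not reach 2-fold with IFNγ. All 47 were raised with IFNγ at a Benjamini-Hochberg adjusted p under 0.05 (limma), with a median log2 difference of 0.91 against 1.08 in untreated cells, and at 2 of them the effects differed by the interaction term. The lowest of the 47 with IFNγ, at 0.26, was the probe with a ≥ 2-fold lower effect described above. Of the 94 probes lowered ≥ 2-fold in untreated cells, all were lowered with IFNγ at an adjusted p under 0.05, with a median of -1.24 against -1.23. In siBRM cells, 210 of the 213 and 87 of the 94 passed the adjusted p-value in the same direction with IFNγ.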
